A study of Mus musculus with 11 samples.

Results

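The respiratory chain of the inner mitochondrial membrane is built from subunits encoded in the nucleus and in the mitochondrial genome, and the nuclear-encoded genes are described here across the cells of control and fibrotic mouse kidneys. Members were taken by symbol: those starting with Ndufa, Ndufb, Ndufc, Ndufs, Ndufv or Uqcr, the succinate dehydrogenase genes starting with Sdh followed by a to d, and Cox4 to Cox8, without the Ndufaf assembly factors. The prefixes matched 72 genes, of which *Cox7b2*, *Cox8b* and *Cox8c* had fewer than 50 unique molecular identifiers (UMIs, each 1 captured mRNA molecule) over all kept cells and were left out. The remaining 69 genes, of 28692 listed and 22225 with at least 1 UMI, comprised 36 of complex I, 4 of complex II, 8 of complex III, 17 of complex IV and 4 complex II assembly factors (*Sdhaf1* to *Sdhaf4*) that the prefix also takes in. *Ndufa4* and its paralogue *Ndufa4l2* were counted with complex IV. The droplet libraries came from kidneys of male C57Bl/6 mice: 5 libraries of kidneys of naive control mice, 3 taken 28 days after the left renal pedicle was clamped for 30 minutes (unilateral ischemia-reperfusion, UIR) and 3 taken 28 days after irreversible ligation of the left ureter (unilateral ureteral obstruction, UUO). Surgery was done at an age of 10 weeks, and by the study's methods the controls matched the operated mice in age, strain and sex. All suspensions were made with a protease active in the cold. The methods give 5 control mice and 3 mice per model, as many as there are libraries. The labels tie no library to a mouse, so the spread between libraries may be partly technical.

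Complex I (NADH dehydrogenase) and complex II (succinate dehydrogenase, also an enzyme of the tricarboxylic acid cycle) pass electrons to ubiquinone, complex III (cytochrome bc1) passes them to cytochrome c, and complex IV (cytochrome c oxidase) passes them to oxygen. The proton gradient that complexes I, III and IV build drives the ATP synthase. In the kidney, mitochondria are most abundant in the proximal tubule, the thick ascending limb of the loop of Henle, the distal convoluted tubule and intercalated cells, where ATP pays for active transport.

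The count matrices held between 49503312 and 117043590 UMIs per library, and 40593 barcodes were kept as cells, from 1859 to 7443 per library. Barcodes with more than 30% mitochondrial UMIs were left out, which removed 57.0% to 78.7% of the called barcodes of controls, 23.8% to 37.2% after UIR and 3.15% to 8.01% after UUO. Cells were clustered without the member genes, their pathway lists, the marker genes or any mitochondrially encoded gene, and clusters were named by the markers of each class, so that each class name below stands for cells like that type: proximal tubule (PT), loop of Henle (LOH), distal tubule (DT), collecting duct principal (CD-P) and intercalated (CD-I) cells, failed repair tubular epithelial cells (frTEC), podocytes (Podo), endothelium (Endo), macrophages (Macro), T and natural killer cells (T/NK), dendritic cells (cDC1, cDC2), neutrophils (Neutro) and 3 stromal classes (Fibro 1 to 3). Clusters that met no class took 21.7% of the kept control cells, 17.8% in UIR and 10.4% in UUO, and 210 barcodes occurred in more than 1 library. The largest cluster that met no class, c01, held 1140 UIR, 79 UUO and 1747 control cells. Cells like LOH, DT, CD-P, CD-I or frTEC were clustered again together, as were the stromal cells by themselves. Some of the clusters made from the tubular cells in this way also met no class. They held 792 UIR, 184 UUO and 18 control cells (t01), 149, 181 and 3 (t08), 171, 128 and 2 (t11), 121, 151 and 3 (t12), and 240, 15 and 373 (t03). Cells of clusters that met no class entered none of the main comparisons. The libraries whose titles carry no number (Ctrl, UIR and UUO) stood apart. The summed level of the members in library Ctrl lay above that of all other controls in 7 of 10 classes, library UIR above the other UIR libraries in 14 of 14, and library UUO above the other UUO libraries in 14 of 17, with median ratios of 1.10, 1.27 and 1.25. The counts of members called in each class and comparison are therefore also given without these 3 libraries, and the counts by complex are of all libraries. Where a count under another setting has no share of all genes beside it, it cannot be set against the share of the main fit.

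The promoters of the members were searched for the letters of 4 motifs of transcription factors known for mitochondrial genes, as a description of what their sequences share. No relation of these letters to the values below was tested. RefSeq promoter sequence (GRCm38.p6, 250 bases before to 50 after the start) was matched for 56 of the 69 members. The core of the NRF1 motif, GCATGCGC, occurred exactly on either strand in 7 of the 56 promoters (12.5%) and in 3.05% of 27025 promoters. The YY1 letters AAGATGGC occurred in 7 (12.5%, against 3.19% of all), the ETS letters CCGGAAGT in 4 (7.14% against 4.31%) and the ERR letters TCAAGGTCA in 1, that of *Sdhd* (1.79% against 0.47%). Any of the 4 was present in 18 promoters (32.1%) and in 10.4% of all. In 5 members the NRF1 letters lay wholly before the start, with their first base 8 (*Ndufa8*) to 162 (*Cox6a1*) bases before it. The 60 bases that hold them are shown, with the NRF1 letters, and the bases by which overlapping matches extend them, in capitals (*Cox6a1* chr5:115349086-115349145 minus strand, *Ndufa11* chr17:56717677-56717736 plus, *Ndufa6* chr15:82354341-82354400 minus, *Ndufa8* chr2:36049339-36049398 minus, *Sdhb* chr4:140961191-140961250 plus):
Cox6a1: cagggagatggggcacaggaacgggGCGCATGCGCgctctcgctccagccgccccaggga
Ndufa11: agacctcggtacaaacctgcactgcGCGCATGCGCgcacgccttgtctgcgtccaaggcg
Ndufa6: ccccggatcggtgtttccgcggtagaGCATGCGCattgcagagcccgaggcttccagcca
Ndufa8: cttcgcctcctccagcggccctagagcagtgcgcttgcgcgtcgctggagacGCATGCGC
Sdhb: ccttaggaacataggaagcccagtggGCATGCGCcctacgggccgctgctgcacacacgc

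All 7 YY1 matches lay on the sense strand downstream of the start, with their first base 23 to 39 bases after it, where 30.6% of the 927 YY1 matches over all promoters lay on the sense strand after the start. The letters contain ATG. The 7 members were called lower in 4 (*Ndufa3*) to 8 of the 8 comparisons of distal classes with control described below. Such calls were common to the members, with or without these letters. Of the 65 members fitted in all 8 comparisons, 58 were lower in at least 6 (89.2%) and 25 in all 8 (38.5%). Of all genes, 6.46% and 1.89% were. As examples, the letters are shown in capitals in 30 bases for *Ndufb8* (chr19:44555393-44555422, minus strand), *Ndufa9* (chr6:126849097-126849126, minus) and *Ndufs6* (chr13:73328433-73328462, minus), 3 of the 4 called in all 8:
Ndufb8: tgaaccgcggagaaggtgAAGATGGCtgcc
Ndufa9: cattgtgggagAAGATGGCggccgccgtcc
Ndufs6: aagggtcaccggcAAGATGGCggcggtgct

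Among the 11 classes with enough control cells, the members made up the largest share of UMIs in intercalated and distal tubule cells and the smallest in macrophages. The summed level averaged 51987 ± 3806 counts per 1e6 UMIs of the class (CPM) in CD-I, 51541 ± 2812 in DT, 45103 ± 4164 in LOH, 35514 ± 2250 in PT and 31402 ± 2897 in CD-P (SD, n = 5 libraries each), with 33190 ± 6482 in frTEC (n = 3). Neighbours in this order overlapped between libraries. Podocytes (19850 ± 1610, n = 5) lay apart below the tubular classes. Fibro 3 (14834 ± 233, n = 3), T/NK (14572 ± 1189) and Endo (13373 ± 495, n = 5 each) followed, with T/NK overlapping both others and all Fibro 3 libraries above all Endo libraries, and Macro (10207 ± 1076, n = 5) lay apart as the lowest. These orders describe classes and were not tested, since classes come from clustering the same cells.

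**Figure D1:**
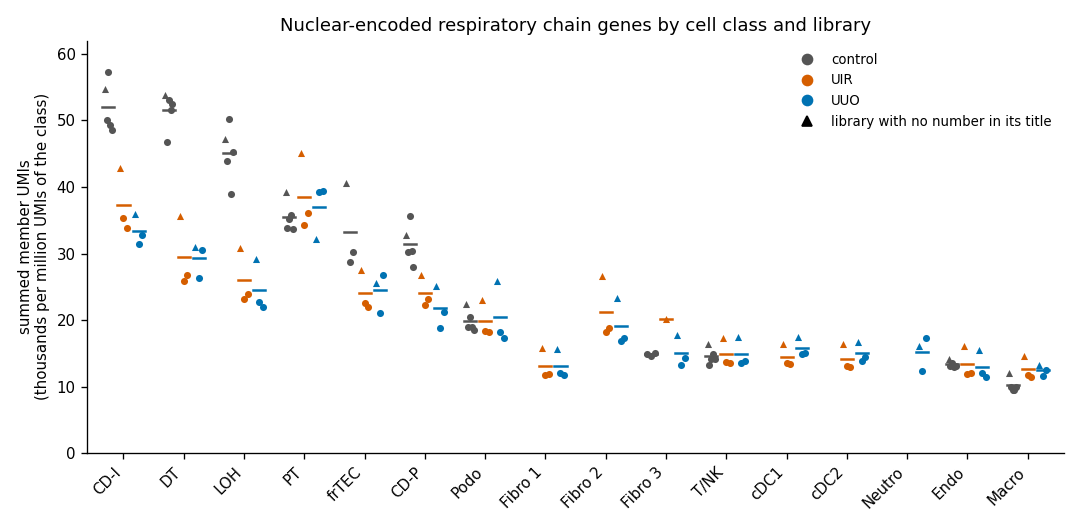
Summed level of the 69 members in units of 1e3 CPM (vertical axis) in each cell class (horizontal axis), 1 symbol per library, with a line at the mean of each group and triangles for the 3 libraries with no number in their titles. Control libraries lie above all UIR and UUO libraries in CD-I, DT, LOH and CD-P, and the groups overlap in PT, Podo, T/NK and Endo.

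In the distal nephron nearly all members fell in both injuries in LOH, DT and CD-I, and fewer were called in CD-P. Tested with edgeR's quasi-likelihood test on counts summed per library, with Benjamini-Hochberg adjustment over all genes of the class, 62 of 66 tested members fell in LOH in UIR and 63 in UUO, and 0 rose, where 14.0% and 16.5% of all genes tested fell. The median member changed by -1.04 and -1.13 on the log2 scale, while the median of all genes tested was 0.07 and 0.06. In DT, 61 and 62 of 65 tested members fell (14.6% and 15.7% of all genes), with medians of -1.12 and -1.17. In CD-I, 57 and 59 of 66 fell (6.61% and 13.4% of all genes), with medians of -0.70 and -0.95. CD-P had 25 of 66 lower in UIR and 47 in UUO (7.57% and 16.4% of all genes), with medians of -0.40 and -0.56. No member rose in any of these 8 comparisons. The UIR and UUO comparisons share their control libraries. Without the libraries Ctrl, UIR and UUO, a setting chosen after seeing the data, 63 and 64 members fell in LOH, 62 and 62 in DT, 61 and 60 in CD-I, and 39 and 54 in CD-P. The CD-P count in UIR was 15 without library UIR1 and 11 without UIR2.

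**Figure D2:**
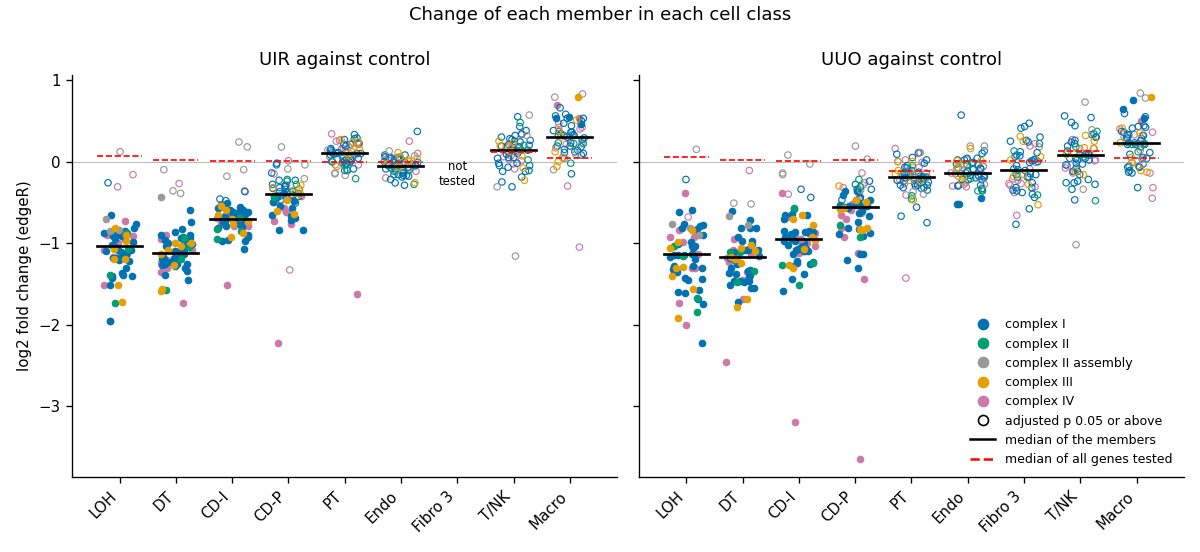
Log2 fold change of each tested member from edgeR (vertical axis) in each class (horizontal axis), UIR against control on the left and UUO against control on the right, coloured by complex, filled where the adjusted p was under 0.05, with the median of the members in black and that of all genes tested as a dashed red line. Nearly all points are filled and below 0 in LOH, DT and CD-I, and few are filled in PT, Endo, Fibro 3, T/NK and Macro.

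The control and injured cells of LOH and DT lay mostly in different clusters, and this moves with the fall. Of 253 control LOH cells, 250 were in cluster t09 (led by *Egf*, *Slc12a1* and *Umod*), while 866 UIR and 321 UUO cells were in t00 (led by *Slc12a1*, *Umod* and *Wfdc2*) and 264 and 371 in t02 (led by the injury-associated *Lcn2*, with *Umod* and *Wfdc2*). Control DT cells lay in t14 and t17 and injured ones mostly in t06. CD-P controls lay mostly in t13 and t20, with 147 UIR and 326 UUO cells in t04 and 130 and 10 in t13. The CD-I controls were in t05, t19 and t21. These also held 358 of the 503 cells after UIR and 60 of the 217 after UUO, and t10 held the other 145 and 157. Within t09, the summed level was 62688, 43985 and 50269 CPM in libraries UIR, UIR1 and UIR2 (31, 30 and 11 cells) and 38976 to 51320 in the 5 controls. The 72 of 1202 UIR cells found in t09 were thus not below the control cells there. They were grouped with control cells because they resembled them in the genes used for clustering. In t00 the 3 UIR libraries were at 23549 to 30530 and the 3 UUO libraries at 22844 to 30565. Restricting the fit to clusters with at least 20 control cells, again chosen after seeing the data, left 0 of 63 members called by edgeR in LOH in UIR (median 0.15, 9 at an unadjusted p under 0.05), where 0.310% of all genes in that fit were lower. It left 5 of 65 in DT in UIR (median -0.26, 1.49% of all genes), 4 of 65 in CD-P in UIR (median -0.19, 3.30%), and 12 and 37 of 66 in CD-I in UIR and UUO (medians -0.51 and -0.73, 1.39% and 3.14%). These fits rest on fewer cells, with pools of at least 10 cells instead of 20, and fewer of all genes were called in them too. Outside LOH they pool several clusters, whose mix still differed between groups. Of the CD-P cells in such clusters, t20 held 101 of 214 in controls and 13 of 143 in UIR. Of those of CD-I, t05 held 151 of 246 in controls and 51 of 60 in UUO. The part of this mix in the values was not tested. The LOH, DT and CD-P fits of UUO could not be made on these clusters. In the CD-I cluster t05, which both groups shared, controls were at 58960 to 84236 and UIR libraries at 55095 to 57106, and UUO libraries at 31338, 52782 and 57245, all below every control. Whether the change of cluster or a change within a cell state accounts for the fall was not tested.

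**Figure D3:**
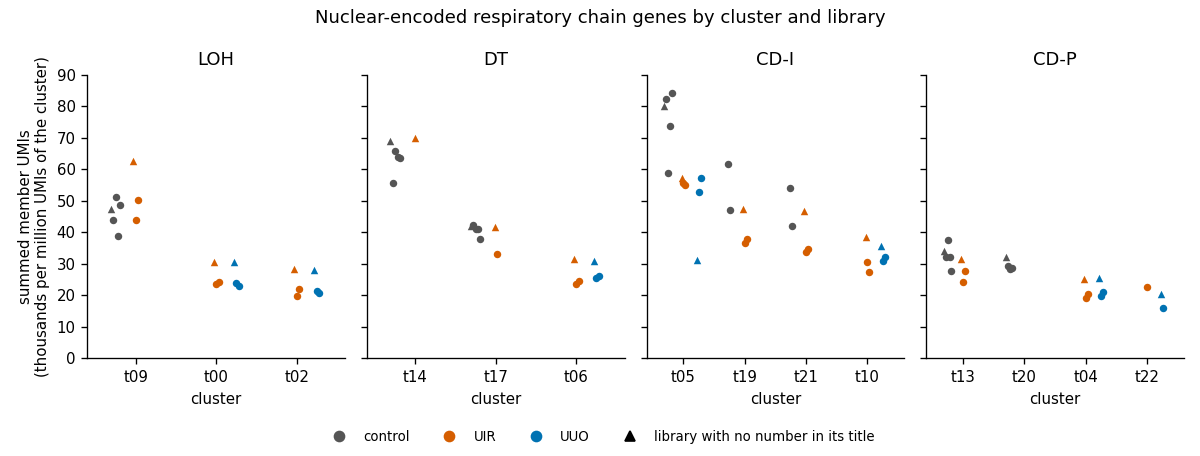
Summed level of the members in units of 1e3 CPM (vertical axis) by cluster (horizontal axis) in LOH, DT, CD-I and CD-P, 1 symbol per library with at least 10 cells in the cluster. UIR symbols lie among or above the controls in LOH t09 and below them in CD-I t05, and no control library has enough cells in t00, t02, t06, t10, t04 and t22.

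Depth per cell also moved with the groups. The mean UMIs per LOH cell ranged from 5595 to 10505 over the controls, from 17527 to 26028 after UIR and from 15867 to 24291 after UUO. The members themselves gave 245 to 496 UMIs per LOH cell in controls, 407 to 622 after UIR and 425 to 550 after UUO. The overlap came from library Ctrl, the highest control, and all other controls lay below every injured library. Per cell the members were thus not lower after injury in LOH, while their share of all UMIs was lower in every injured library. In DT they gave 530 to 914, 350 to 530 and 501 to 570, where the highest UIR library only reached the lowest control. In CD-I they gave 353 to 845, 334 to 493 and 395 to 607, with overlapping groups. No such values are given for CD-P, so whether its members were lower per cell is not shown. A lower share of UMIs and a larger total per cell cannot be told apart in relative counts, and all fold changes here are relative.

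Summed by complex, the UIR and UUO means in LOH were 0.571 and 0.543 of the control mean for complex I, 0.454 and 0.406 for complex II, 0.541 and 0.50 for complex III and 0.603 and 0.569 for complex IV. *Ndufs1* encodes the largest iron-sulfur core subunit, which receives electrons from the flavin-bearing module (chr1:63143596-63176833, minus strand, GRCm38.p6). In LOH its level was 256, 273, 203, 205 and 208 CPM in controls Ctrl, N1, N2, AN1 and AN2, 69, 65.4 and 70.4 in UIR, UIR1 and UIR2, and 57.3, 55.3 and 59.1 in UUO, UUO1 and UUO2. Every injured library was below every control. The log2 fold change was -1.96 ± 0.13 (SE, edgeR adjusted p = 7.66e-11) in UIR and -2.22 ± 0.13 (adjusted p = 8.85e-12) in UUO, and with clusters restricted to those holding control cells the UIR value was -0.19 (adjusted p = 0.842).

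*Ndufs1* fell in the other distal classes too. In DT it was at 213 to 257 CPM in controls, 98.4 to 106 after UIR and 74.3 to 96.8 after UUO (log2 fold changes -1.45 ± 0.13 and -1.72 ± 0.14). In CD-I it was at 194 to 259, 111 to 143 and 93.3 to 114 (-1.07 ± 0.14 and -1.44 ± 0.15), and in CD-P at 87.1 to 171, 62.9 to 72 and 47.1 to 55 (-0.84 ± 0.18 and -1.30 ± 0.18). Control and injured libraries did not overlap in any of these classes. Restricted to clusters holding control cells, *Ndufs1* stayed lower in DT (-0.68, adjusted p = 0.00909) and in CD-I (-0.98 in UIR, adjusted p = 0.00124, and -1.72 in UUO, adjusted p = 0.000779), and its CD-P value in UIR was -0.46 (adjusted p = 0.207).

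The 7 tested core subunits of complex I, which carry the redox centres or their scaffold, all fell in LOH, DT and CD-I in both injuries, with medians from -0.73 (CD-I, UIR) to -1.60 (LOH, UUO). Of the other 29 complex I members, 28 fell in LOH in each injury, all 29 in DT in each, and 26 and 27 in CD-I. In CD-P, 1 of the 7 core subunits fell in UIR and 4 in UUO (medians -0.34 and -0.47), as did 12 and 23 of the other 29. *Ndufv1*, which binds the flavin that accepts electrons from NADH, was at 222 to 283 CPM in LOH controls, 107 to 115 after UIR and 85.9 to 96.1 after UUO (log2 fold changes -1.40 ± 0.13 and -1.69 ± 0.14). Among membrane-arm accessory subunits, *Ndufb10* in LOH was at 665 to 959 in controls, 311 to 337 after UIR and 268 to 288 after UUO (-1.51 ± 0.14 and -1.75 ± 0.14). In CD-P the largest falls within complex I included *Ndufb8*, at 525 to 773, 357 to 404 and 273 to 369 (-0.84 ± 0.15 and -1.13 ± 0.15), and *Ndufb11*, at 456 to 533, 309 to 321 and 197 to 267 (-0.69 ± 0.14 and -1.21 ± 0.14). *Ndufa7*, an accessory subunit named after its values were seen, was the complex I member of LOH that was not called, at 423 to 553, 390 to 579 and 411 to 596, with full overlap of the groups.

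All 4 subunits of complex II fell in LOH, DT and CD-I in both injuries, and in CD-P 1 fell in UIR and 2 in UUO. *Sdhb*, the iron-sulfur subunit, was at 494, 466, 644, 477 and 466 CPM in the LOH of controls Ctrl, N1, N2, AN1 and AN2, at 227, 163 and 148 in UIR, UIR1 and UIR2 and at 218, 148 and 127 in UUO, UUO1 and UUO2. All injured libraries were below all controls, with log2 fold changes of -1.73 ± 0.20 (adjusted p = 2.97e-07) and -1.85 ± 0.20 (adjusted p = 8.30e-08), and the UIR value was 0.14 within clusters holding control cells. *Sdha*, the flavin-bearing catalytic subunit, was at 393 to 466 in controls, 182 to 209 after UIR and 147 to 169 after UUO (-1.39 ± 0.12 and -1.68 ± 0.13). Of the 4 *Sdhaf* assembly factors, 3 fell in LOH in each injury (median -0.78 in each), 1 and 2 fell in DT, and 0 were called in CD-P. In CD-I 0 were called in either injury, with log2 fold changes from -0.18 to 0.24 and 0 at an unadjusted p under 0.05, and *Sdhaf2*, named after its values were seen, was called in 0 of the 8 distal comparisons. In LOH *Sdhaf2* was at 14.1 to 26.4 CPM in controls, 27.2 to 36.5 after UIR and 30 to 33.7 after UUO, with injured libraries above all controls, while the fit with composition scaling placed them at 0.12 ± 0.22 and 0.15 ± 0.22 (adjusted p = 0.713 and 0.670).

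All 8 members of complex III fell in LOH, DT and CD-I in both injuries, and in CD-P 3 fell in UIR and 7 in UUO. *Uqcrfs1* encodes the Rieske iron-sulfur protein, which hands electrons on towards cytochrome c (chr13:30540308-30545362, minus strand). In LOH it was at 487, 503, 572, 457 and 523 CPM in controls Ctrl, N1, N2, AN1 and AN2, at 219, 165 and 155 in UIR, UIR1 and UIR2 and at 189, 146 and 135 in UUO, UUO1 and UUO2, without overlap between control and injured libraries. Its log2 fold changes were -1.72 ± 0.17 (adjusted p = 2.44e-08) and -1.92 ± 0.17 (adjusted p = 2.89e-09), and -0.05 in UIR within clusters holding control cells. In DT it was at 518 to 657 in controls, 214 to 291 after UIR and 221 to 259 after UUO (-1.59 ± 0.14 and -1.69 ± 0.15). *Uqcrq*, a small subunit, was in DT at 1245 to 1610 in controls, 502 to 758 after UIR and 443 to 606 after UUO (-1.56 ± 0.17 and -1.79 ± 0.17), and the core subunit *Uqcrc1* in LOH at 272 to 409, 155 to 191 and 116 to 165 (-1.19 ± 0.16 and -1.41 ± 0.17).

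In complex IV, 12 of 14 tested members fell in LOH in UIR and 13 in UUO, and 12 of 13 in DT in each. In CD-I 12 and 13 of 14 fell, and in CD-P 8 and 11 of 14. *Cox4i1*, the widely used isoform of the largest nuclear-encoded subunit, was at 2177 to 2789 CPM in LOH controls, 1481 to 1618 after UIR and 1306 to 1564 after UUO (-0.90 ± 0.14 and -1.03 ± 0.14). *Cox7b* was at 917 to 1657 in controls, 459 to 573 after UIR and 406 to 467 after UUO (-1.52 ± 0.17 and -1.73 ± 0.17). *Cox7a2l*, which is known as a factor of supercomplexes of complexes III and IV, was at 283 to 372, 266 to 314 and 261 to 294 (-0.31 ± 0.13, adjusted p = 0.0679, and -0.39 ± 0.13, adjusted p = 0.0196), and passed the test in 2 of the 8 distal comparisons.

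The heart and muscle isoform *Cox7a1* (chr7:30184144-30186078, plus strand) had the most negative log2 fold change of the tested members in CD-P, CD-I and DT in both injuries. In LOH in UIR it was level with *Ndufs1*, at -1.96 each. In frTEC, where no test was made, it was at 98.1 to 267 CPM in controls, 11.1 to 27.8 after UIR and 6.29 to 41.3 after UUO. In CD-I it was at 314, 315, 412, 317 and 248 CPM in controls Ctrl, N1, N2, AN1 and AN2, at 121, 150 and 123 in UIR, UIR1 and UIR2 and at 54.7, 31.9 and 46.5 in UUO, UUO1 and UUO2. The 3 groups did not overlap with each other. Log2 fold changes against control were -1.51 ± 0.17 (adjusted p = 5.90e-06) in UIR and -3.20 ± 0.20 (adjusted p = 1.46e-09) in UUO, and within clusters holding control cells they were -1.14 (adjusted p = 0.00131) and -2.83 (adjusted p = 5.00e-05). In CD-P it was at 184, 118, 190, 117 and 125 in controls, 31.7, 32.1 and 32.5 in UIR and 16.6, 6.58 and 15.4 in UUO, again without overlap (-2.23 ± 0.24 and -3.65 ± 0.26). In DT it was at 65.4 to 109 in controls, 23.3 to 43.3 after UIR and 11.4 to 32.3 after UUO (-1.74 ± 0.21 and -2.46 ± 0.29), and its DT value in UIR within clusters holding control cells was 0.12. In LOH it was at 35.5 to 53.3 in controls, 9.70 to 18.3 after UIR and 8.59 to 16.5 after UUO (-1.96 ± 0.30 and -2.01 ± 0.31), with 0.56 in UIR within clusters holding control cells. In PT it was at 20.1 to 34.1, 24.4 to 29.0 and 20.2 to 44.7, with overlap (-0.04 ± 0.16 and 0.10 ± 0.37). The ubiquitous paralogue *Cox7a2* fell in all 8 distal comparisons.

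Over the 4 distal classes and 2 injuries, 25 of the 65 members fitted in all 8 comparisons passed the test as lower in all 8 (38.5%, where 1.89% of the 7844 genes fitted in all 8 did) and 58 in at least 6 (89.2%, against 6.46%). Without the 3 unnumbered libraries these counts were 38 and 60 of 65, with 1.83% and 5.95% of all genes. The 25 comprised 13 of complex I, *Sdha*, *Uqcr11*, *Uqcrfs1* and *Uqcrh*, and the 8 complex IV members *Cox4i1*, *Cox5a*, *Cox6a1*, *Cox6b1*, *Cox7a1*, *Cox7a2*, *Cox7b* and *Cox8a*. Of the 65, those called in fewer than 6 were *Cox7a2l*, *Ndufa7* and *Sdhaf3* (2 each), *Sdhaf1* (3), *Ndufa3* and *Sdhaf4* (4 each) and *Sdhaf2* (0). *Cox6b2* was fitted in 6 of the 8 comparisons and called in 1. *Cox4i2*, *Cox6a2* and *Ndufa4l2* had too few counts in the distal classes to be fitted. The 8 comparisons share their controls in pairs, and these counts are a description.

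Few members were called as different between UUO and UIR. Tested against each other with edgeR, UUO was lower than UIR in 3 of 66 members in CD-I (1.48% of all genes were lower) and in 3 of 66 in CD-P (2.96%). These were *Cox7a1* (-1.69 ± 0.21, adjusted p = 0.000116), *Sdhc*, a membrane anchor of complex II (-0.68 ± 0.15, adjusted p = 0.0149), and *Ndufb10* (-0.62 ± 0.15, adjusted p = 0.0364) in CD-I, and *Cox7a1* (-1.41 ± 0.29, adjusted p = 0.00616), *Sdhc* (-0.54 ± 0.15, adjusted p = 0.0374) and *Ndufb11* (-0.52 ± 0.15, adjusted p = 0.0482) in CD-P. At an unadjusted p under 0.05 there were 20 members in CD-I and 10 in CD-P. The fitted change was below 0 in 60 of 66 members in each class. The medians were -0.26 in CD-I and -0.17 in CD-P, against -0.00 and 0.01 over all genes. The count of members called fell to 1 in CD-I without UIR1, UUO1 or UUO2, and to 1 in CD-P without UIR1, UIR2, UUO1 or UUO2. In the CD-I clusters holding control cells, 0 members were called between UUO and UIR by edgeR, with 8 at an unadjusted p under 0.05. Without the 3 unnumbered libraries the counts were 3 in CD-I and 4 in CD-P, and with a mitochondrial limit of 50% CD-I had 10. In CD-I, *Sdhc* was at 193 to 272 CPM in controls, 135 to 153 after UIR and 78.5 to 104 after UUO. In LOH and DT, 0 members differed between the injuries by edgeR (2.26% and 0.652% of all genes called), with 4 and 1 at an unadjusted p under 0.05 and 1 and 0 by DESeq2. In DT, 13 were lower in UUO when each cell was named by itself and 9 with the mitochondrial limit at 50%, which gave 1 in LOH. In PT, Endo, Macro and T/NK, 0 members differed between the injuries (0.134%, 2.74%, 1.45% and 1.74% of all genes called), with 4, 4, 2 and 1 at an unadjusted p under 0.05 and 0 by DESeq2. Leaving out the 3 unnumbered libraries gave 0 in LOH, DT and these 4 classes.

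The summed level in the proximal tubule cells recovered from injured kidneys overlapped that of the controls. In PT the summed level was 39189, 33768, 35249, 35744 and 33622 CPM in controls Ctrl, N1, N2, AN1 and AN2, 45156, 34274 and 36111 in UIR, UIR1 and UIR2 and 32226, 39190 and 39367 in UUO, UUO1 and UUO2, so that library UIR lay above all controls, library UUO below them, and UUO1 and UUO2 at or just above the highest. The PT pools of UUO held 22, 27 and 50 cells against 945 to 1126 in controls, and those of library UUO had 1346 UMIs per cell. By edgeR, 1 of 67 tested members was lower in UIR (2.96% of all genes were lower) and 0 were called in UUO (2.07% of all genes called), with 5 at an unadjusted p under 0.05 in UUO and 2 lower by DESeq2. The median member changed by 0.10 in UIR and -0.19 in UUO, where the median of all genes was -0.01 and -0.11. Without the 3 unnumbered libraries 0 members were called in UIR (median -0.02) and 1 was lower in UUO. The member that fell, *Cox6a2*, is the heart and muscle isoform of subunit VIa and was scarce, at 2.48 to 5.16 CPM in controls and 0.939 to 1.86 in UIR (-1.62 ± 0.40, adjusted p = 0.0112), and it was not called without library UIR1. *Ndufs1* was at 140 to 169 in PT controls, 134 to 140 after UIR and 101 to 161 after UUO (-0.11 ± 0.13 and -0.29 ± 0.20), and *Sdha* at 266 to 312, 275 to 296 and 284 to 372 (0.00 ± 0.14 and -0.05 ± 0.18).

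The change in LOH was tested against that in PT, with each library as a block. Of 67 members, 61 had a lower change in LOH than in PT in UIR (8.90% of all genes were lower), with a median difference of -1.13, and 24 in UUO (3.17%), with a median difference of -0.71, where the median of all genes was 0.42. Without the PT and LOH pools of library UUO the UUO count was 59, without UUO1 it was 8 and without UUO2 it was 9, and without the 3 unnumbered libraries the counts were 60 in UIR and 56 in UUO.

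In frTEC, levels are given without a test. The summed level was 28747 to 40629 CPM in the 3 control libraries with enough cells, 21915 to 27576 after UIR and 21051 to 26715 after UUO, with controls above all injured libraries. The groups differed in their clusters. Of 97 frTEC in controls 56 were in t18, of 739 after UIR 76, and of 240 after UUO 33. Clusters s02 and t07 together held 18, 519 and 144. Free RNA, as estimated from genes of other classes, made up 4.80% to 46.0%, 17.3% to 70.7% and 6.09% to 21.3% of the frTEC pools, and its part in these levels was not tested.

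In macrophages, some members rose. The summed level was 9491 to 12084 CPM in controls, with library Ctrl the highest, 11517 to 14579 after UIR and 11538 to 13258 after UUO. By edgeR, 6 of 65 tested members rose in UIR (9.23% of the members, where 3.40% of all genes rose) and 5 in UUO (7.69%, where 5.01% of all genes rose), 0 fell, and the medians were 0.30 and 0.23 against 0.04 and 0.04 over all genes. *Uqcrq* was at 182, 179, 162, 118 and 156 in controls Ctrl, N1, N2, AN1 and AN2, 337, 255 and 238 in UIR, UIR1 and UIR2 and 322, 256 and 292 in UUO, UUO1 and UUO2, all injured libraries above all controls (0.79 ± 0.16, adjusted p = 0.00362, and 0.79 ± 0.16, adjusted p = 0.0019). *Cox5a*, a structural subunit of complex IV, was at 171 to 225, 300 to 374 and 274 to 336 (0.69 ± 0.14 and 0.50 ± 0.14), and *Ndufb8* at 112 to 165, 201 to 248 and 208 to 243 (0.55 ± 0.15 and 0.53 ± 0.15). *Ndufs5*, *Cox7b* and *Ndufa13* rose in UIR, and *Ndufv3* and *Ndufa1* in UUO. The UUO share lies near that of all genes, and the counts rest on single libraries: the UIR count was 10 without Ctrl, 3 without N2, 2 without AN1, 3 without AN2, 2 without library UIR and 2 without UIR1, and the UUO count was 8 without Ctrl, 1 without N2, 1 without AN1, 3 without AN2 and 1 without library UUO. Without the 3 unnumbered libraries they were 4 and 6, and with estimated free RNA subtracted 21 and 28. The macrophages also differed in cluster. In controls 267 of 400 lay in c02 and 133 in c00. After UIR 1266 of 3754 lay in c02 and 2486 in c00, and after UUO 1341 of 4341 and 2875. The part of this in the rise was not tested. The change in Macro was higher than that in PT in 5 of 67 members in UIR (3.41% of all genes) and 11 in UUO (2.28%), and DESeq2 gave 0 and 2. The first count was 3 without Ctrl, N1 or N2, 1 without AN1, UIR, UIR1, UIR2 or UUO1, and 13 without library UUO, and the second was 6 without Ctrl, UIR1 or UIR2, 17 without UUO1 and 18 without UUO2, and without the 3 unnumbered libraries they were 6 and 8.

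In endothelial and T/NK cells and the stromal class Fibro 3, few or no members passed the test in the main fit. In Endo, 0 of 64 members were called in UIR (2.18% of all genes called, 1 member at an unadjusted p under 0.05, 0 by DESeq2), and 3 were lower in UUO (6.84% of all genes were lower). These were the complex I subunits *Ndufb10* (194 to 248 CPM in controls, 138 to 194 in UUO, -0.52 ± 0.14), *Ndufb9* (280 to 346 and 234 to 281, -0.45 ± 0.12) and *Ndufs7* (163 to 184 and 110 to 165, -0.52 ± 0.15), named after their values were seen. The UUO count was 7 without library UUO, 0 without UUO1, 1 without UUO2, and 16 without the 3 unnumbered libraries, which also gave 4 lower in UIR. The share of all genes called in these other fits is not given. With estimated free RNA subtracted, the Endo median in UUO was positive, as given in the last section. In T/NK, 0 of 64 were called in UIR (0.618%) and in UUO (2.63%), with 3 and 4 at an unadjusted p under 0.05 and 0 by DESeq2. In Fibro 3, tested in UUO alone, 0 of 61 were called (2.24%), with 2 at an unadjusted p under 0.05 and 0 by DESeq2. The T/NK and Fibro 3 counts were also 0 without the 3 unnumbered libraries. The change in Endo differed from that in PT in 0 of 67 members in either injury (5.58% and 5.34% of all genes called, 0 and 8 at an unadjusted p under 0.05, 0 by DESeq2), and in 0 without the 3 unnumbered libraries.

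The paralogous isoforms *Cox4i2* and *Ndufa4l2* were most abundant in stromal classes. *Cox4i2*, the isoform of subunit IV known from smooth muscle and pericytes and from low oxygen (chr2:152754173-152765037, plus strand), was at 190, 136 and 96.9 CPM in Fibro 2 of UIR, UIR1 and UIR2 and 126, 50.1 and 65.0 in UUO, UUO1 and UUO2, where Fibro 2 is the class named by contractile genes such as *Acta2*. In Fibro 3, named by *Pdgfrb*, *Notch3*, *Rgs5* and *Itga8*, it was at 16.8 to 69.2 in controls and 20.1 to 41.9 in UUO. In Fibro 1 it was at 0 to 5.38, with up to 14.2 in frTEC. *Ndufa4l2*, the paralogue of *Ndufa4* known as a target of hypoxia signalling (chr10:127514967-127517154, plus strand), was at 263 to 430 in Fibro 3 of controls, 360 in the 1 UIR library with enough cells and 231 to 378 in UUO, with overlap (-0.21 ± 0.23, adjusted p = 0.715, UUO against control). It was at 64.3 to 118 in Fibro 1 and 48.3 to 174 in Fibro 2. In the frTEC pools it was at 0 in every library. *Cox6b2*, the isoform best known from testis, was at 58.0 to 94.2 in Fibro 1, 8.15 to 39.0 in Fibro 2, 11.2 to 33.7 in Fibro 3, 14.8 to 45.8 in cDC2 and 4.96 to 46.2 in frTEC, so that outside Fibro 1 these classes overlapped. Control pools of Fibro 1 and Fibro 2 had too few cells, so these 2 classes allow no comparison with control.

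**Figure D4:**
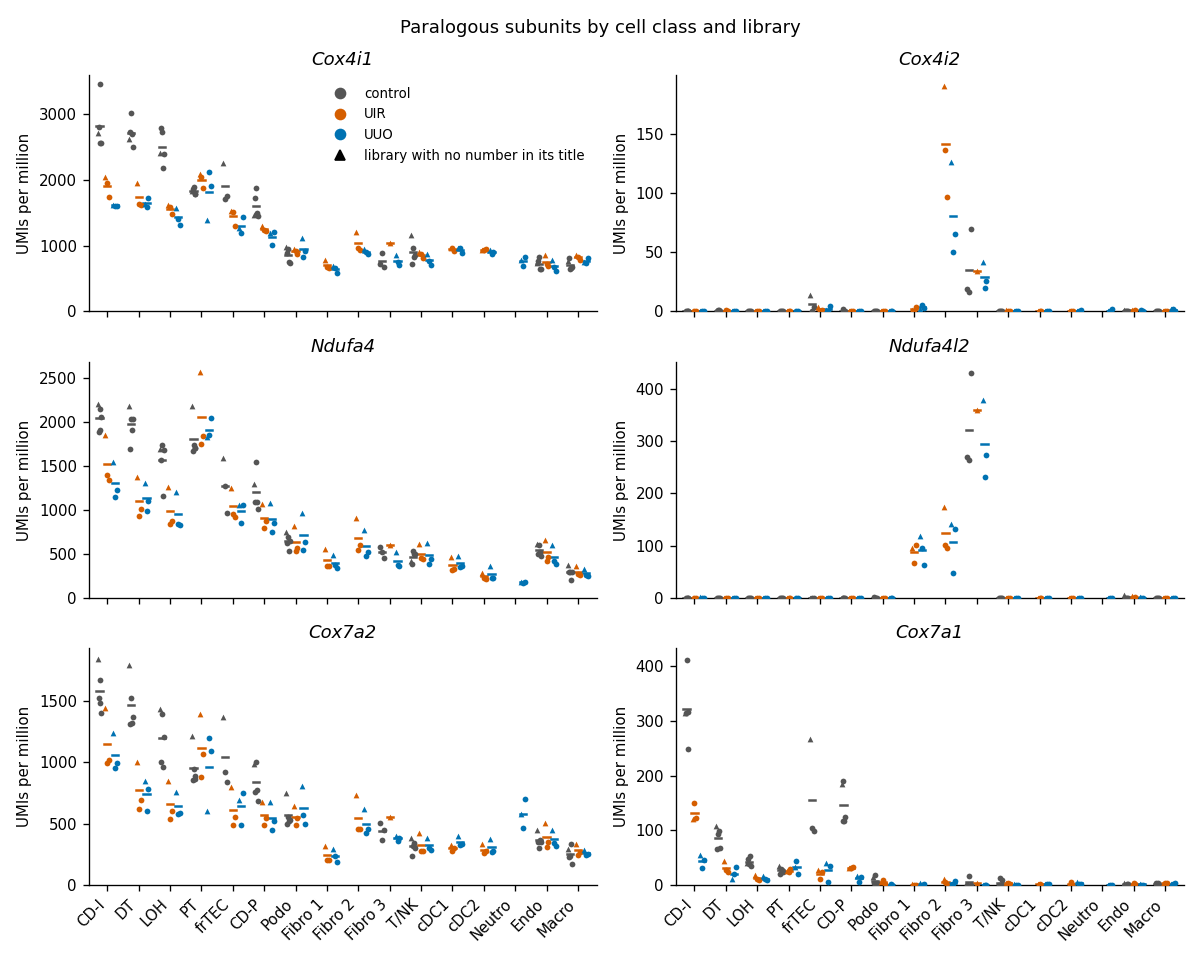
CPM (vertical axes) of 3 pairs of paralogous subunits by cell class (horizontal axis), 1 symbol per library with a line at each group's mean. *Cox4i2* and *Ndufa4l2* are above 0 mainly in the stromal classes, and *Cox7a1* is highest in CD-I, frTEC and CD-P of controls, with all injured libraries below the controls in these classes.

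Other mitochondrial genes of lists outside the members moved in the same classes. The 13 protein-coding genes of the mitochondrial genome include *mt-Atp6* and *mt-Atp8* of the ATP synthase, and the others encode chain subunits. All 13 fell in LOH, DT and CD-I in both injuries (medians -1.62 and -1.74, -0.90 and -1.38, -0.96 and -1.52), and 9 and 12 of them in CD-P (medians -0.58 and -0.90). All 17 tested nuclear ATP synthase genes fell in LOH and all 16 tested in DT in each injury. Of 13 tricarboxylic acid cycle genes, 13 fell in LOH in each injury, 12 in DT and CD-I in each, and 4 and 10 in CD-P. Of the assembly factors, 17 and 16 of 25 fell in LOH (14.0% and 16.5% of all genes), 13 and 14 of 23 in DT (14.6% and 15.7%), 3 and 7 of 23 in CD-I (6.61% and 13.4%) and 0 and 1 of 24 in CD-P (7.57% and 16.4%). *Cycs*, which encodes cytochrome c, the carrier between complexes III and IV, fell in LOH (-1.67 ± 0.23 and -1.71 ± 0.23) and in DT (-1.56 ± 0.18 and -1.74 ± 0.19), and within clusters holding control cells its UIR values were 0.29 in LOH (adjusted p = 0.649) and -0.39 in DT (adjusted p = 0.192). Of the cytosolic ribosomal protein genes, 57 and 69 of 98 rose in LOH (16.5% and 19.7% of all genes rose) with 0 and 1 lower. In DT 6 and 41 of 92 rose (13.0% and 15.4%), in CD-P 13 and 55 of 94 (935 of the 10388 genes tested, and 17.1%) and in CD-I 0 and 2 of 92 (5.69% and 11.3%), with 0 lower in these classes except 3 in CD-I in UUO.

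The nuclear members and the mitochondrially encoded genes parted in Macro, Endo, T/NK and Fibro 3 in UUO. The other immune and stromal classes had no control pools to compare with. The mitochondrially encoded genes fell in Macro (13 of 13, median -1.41), Endo (13 of 13, -1.14), T/NK (13 of 13, -1.15) and Fibro 3 (12 of 13, -1.10) in UUO. Of all genes 4.35%, 6.84%, 1.58% and 1.22% fell there, and the nuclear members had medians of 0.23, -0.14, 0.08 and -0.10. The counts in UIR are not given for these classes. In Fibro 3, the 1 UIR library with enough cells also lay below all controls for the mitochondrially encoded genes. Its *mt-Co1*, for example, was at 10080 CPM, against 12456 to 16415 in controls. In macrophages the 13 mitochondrially encoded genes, with the 2 of the ATP synthase, summed to 68444 to 158988 CPM in controls and 47056 to 60966 in UUO. The ratio of the UMIs of the nuclear members to those of these 13 genes was 0.0598 to 0.177 in controls and 0.192 to 0.282 in UUO. It was likewise above all controls in Fibro 3 (0.0942 to 0.108 in controls and 0.189 to 0.233 in UUO), and its mean in T/NK was 2.03 times the control mean. Mitochondrially encoded UMIs entered the rule for keeping cells, and the share of barcodes that rule removed differed between the groups as given above. In the cells kept, the median percentage of mitochondrial UMIs per cell was 10.3 to 21.4 in the control libraries, 10.1 to 15.5 after UIR and 5.59 to 6.80 after UUO, and the part of this in the fall was not tested. In PT, 0 of the 13 were called in either injury, with medians of -0.03 and -0.53.

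**Figure D5:**
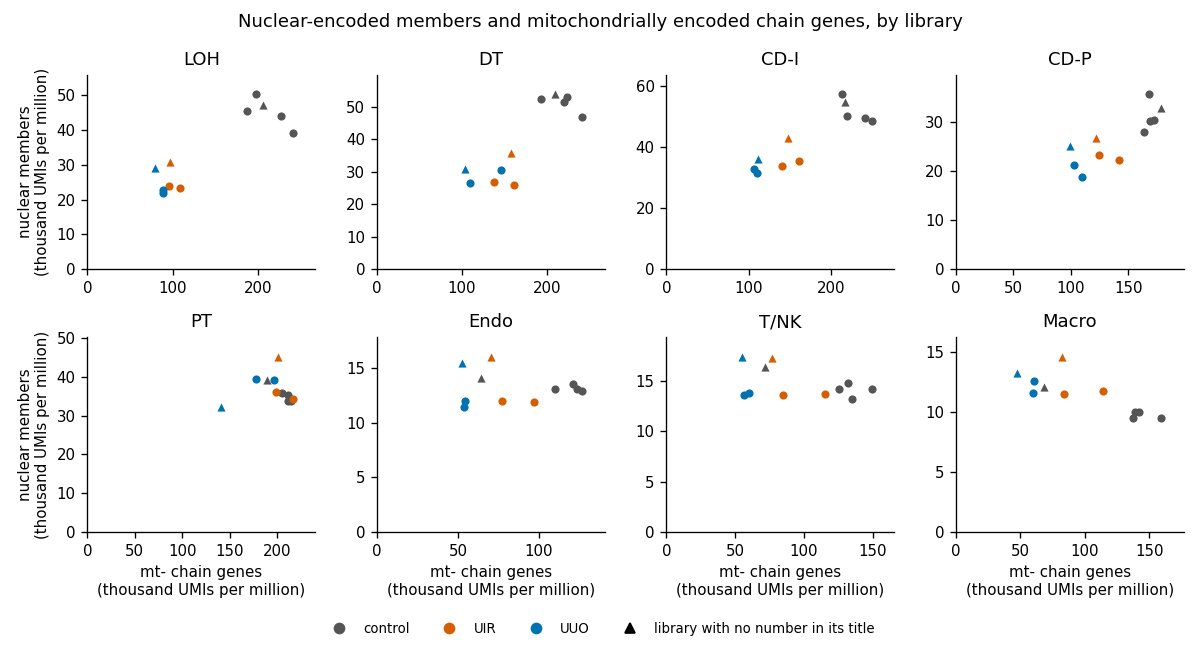
Summed UMIs of the nuclear members (vertical axes) against those of the 13 mitochondrially encoded genes, *mt-Atp6* and *mt-Atp8* of the ATP synthase included (horizontal axes), both in units of 1e3 CPM, 1 symbol per library in each of 8 classes. In LOH, DT, CD-I and CD-P the injured libraries are lower on both axes, and in Endo, T/NK and Macro the UUO libraries lie to the left of all controls at nuclear levels that overlap theirs.

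Regulators of mitochondrial gene expression were read from a list of 13. In LOH, 6 fell in each injury (14.0% and 16.5% of all genes fell) and 1 rose in UUO (19.7% of all genes rose). *Ppargc1a*, a coactivator of mitochondrial biogenesis, was at 236 to 362 CPM in LOH controls, 137 to 142 after UIR and 99.7 to 145 after UUO (-1.31 ± 0.15, adjusted p = 3.06e-07, and -1.47 ± 0.15, adjusted p = 4.08e-08). *Esrra*, a nuclear receptor that works with it, was at 56.4 to 80.5, 32.1 to 34.2 and 24.6 to 34.5 (-1.28 ± 0.17 and -1.44 ± 0.18), and *Tfam*, a factor that packages mitochondrial DNA and helps to start its transcription, at 56.1 to 80.5, 49.5 to 53.8 and 43.0 to 51.1 (-0.58 ± 0.15 and -0.74 ± 0.16). Control and injured libraries did not overlap for any of the 3. Within clusters holding control cells the UIR values in LOH were -0.00 for *Ppargc1a*, -0.08 for *Esrra* and -0.06 for *Tfam* (adjusted p = 0.999, 0.976 and 0.988). The regulator that rose was *Yy1*, a zinc finger transcription factor named here after its values were seen, at 42.3 to 93.4 in controls, 103 to 124 after UIR and 111 to 127 after UUO (0.40 ± 0.16, adjusted p = 0.0653, and 0.47 ± 0.17, adjusted p = 0.0277). In DT, *Ppargc1a* (-0.85 ± 0.13 and -0.84 ± 0.14) and *Esrra* (-0.79 ± 0.16 and -0.81 ± 0.20) fell, and in CD-P likewise (-0.81 ± 0.19 and -1.24 ± 0.19, -1.04 ± 0.20 and -1.07 ± 0.19). Within clusters holding control cells their UIR values were -0.27 and 0.02 in DT (adjusted p = 0.474 and 0.988) and -0.46 and -0.60 in CD-P (adjusted p = 0.137 each). In CD-I *Ppargc1a* was not called (-0.39 ± 0.16 and -0.33 ± 0.17, adjusted p = 0.143 and 0.169), and *Esrra* fell in UUO (-0.64 ± 0.17, adjusted p = 0.00878), with -0.50 (adjusted p = 0.615) within clusters holding control cells. None of the 13 was called in PT by edgeR.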

How the data were processed

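Single-cell RNA was captured with the 10x 3' droplet method in 11 libraries. The authors deposited count matrices of UMIs per gene and barcode, for which the submitters' processing notes name Cell Ranger 3.1.0 and mm10. The members and gene lists were chosen with earlier results of these data known. Of 86598 called barcodes, 42323 with over 30% mitochondrial UMIs were removed, as were barcodes with under 200 genes or over 5% hemoglobin UMIs, and 3288 doublets (the 7.5% with the highest simulated-doublet scores per library), leaving 40593. Cells were clustered on 2000 variable genes and 40 components (scikit-learn 1.9.0, igraph 0.11.9, leidenalg 0.10.2, resolution 1) and named by markers. The margin required between the best and the next class was lowered to 0.05 after the cluster markers, but not member values, were seen.

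Counts were summed per class and library (at least 20 cells, 10 in stroma and in the fits on clusters holding control cells) and tested with edgeR 4.0.16 (R 4.3.3, filterByExpr, TMM scaling, quasi-likelihood test, all 3 groups in 1 model), with Benjamini-Hochberg adjustment over all genes of the class and a threshold of 0.05. The SE printed with an edgeR log2 fold change was derived from the test, as its absolute value divided by the square root of the F statistic. Differences from PT were tested as class by group interactions with the library as a block. Levels are counts per 1e6 UMIs of the pool (CPM). Named genes were up to 5 called members per comparison with the largest change, at least 50 CPM and injured libraries outside the control range, plus paralogous isoforms, core subunits, *Ppargc1a*, *Esrra*, *Tfam* and *Cycs*. Other genes named were chosen after their values or promoter letters were seen. Tested on simulated data for UUO against control, the fit recovered 133 of 200 changed genes in LOH and 73 in PT, where 10 of 99 changed 2-fold and 63 of 101 changed 4-fold were found. Alternatives were DESeq2 1.42.0, other filters, scalings and mitochondrial limits, removal of estimated free RNA, naming cell by cell, a replicate block, and libraries left out. 3 settings were added after seeing the data: leaving out libraries Ctrl, UIR and UUO, a term for numbered titles, and clusters holding at least 20 control cells.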

Additional observations from a re-analysis of the deposited data

Results flagged for a closer look

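Among 88 sets of 5 control values examined, 4 had a library far from the other 4 by Dixon's criterion, and chance gives about 1 in 20. These were the summed member level of macrophages in library Ctrl (12084 CPM), *Ndufs1* in library Ctrl in CD-P (171) and in DT (257), and *Sdhb* in the LOH of library N2 (644). The change after injury differed from that in PT, by the interaction test, in 61 members in LOH in UIR and 24 in UUO, and in 5 and 11 members in Macro. Their dependence on single libraries is given with the results on PT and macrophages and below.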

How the results depend on the processing

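Counts below are of members called, and a median is on the log2 scale. Leaving out 1 library at a time gave 61 to 63 members in LOH in UIR and 61 to 64 in UUO, 60 to 61 and 60 to 62 in DT, 43 to 61 and 55 to 59 in CD-I, 11 to 25 and 35 to 53 in CD-P, 0 to 1 in PT in UIR (median -0.05 to 0.15, -0.05 without library UIR), 0 to 7 in Endo in UUO, 2 to 10 and 1 to 8 in Macro, and 0 to 1 in T/NK in UUO. It gave 1 to 3 between UUO and UIR in CD-I and 1 to 2 in CD-P, 8 to 59 for LOH minus PT in UUO, 0 to 1 for Endo minus PT in UUO, and 1 to 13 and 6 to 18 for Macro minus PT in UIR and UUO. With clusters holding control cells, UIR counts were 0 in LOH (median 0.15), 5 in DT, 4 in CD-P and 12 in CD-I, CD-I in UUO had 37 and UUO against UIR in CD-I had 0. In that setting the UIR change in LOH was 0.14 for *Sdhb*, 0.10 for *Cox7b*, 0.19 for *Uqcrq*, 0.26 for *Ndufa4*, 0.35 for *Cox4i1*, 0.24 for *Cox6a1*, 0.20 for *Cox6b1*, 0.56 for *Cox7a1*, 0.19 for *Cox7a2*, 0.32 for *Cox8a*, 0.06 for *Cox5a* and 0.29 for *Cycs*, and in DT 0.12 for *Cox7a1* and 0.02 for *Esrra*.

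Without libraries Ctrl, UIR and UUO, PT had 0 in UIR (median -0.02) and 1 in UUO, CD-P in UIR 39, Endo 4 and 16, and LOH minus PT in UUO 56. With a term for numbered titles, CD-P in UIR had 40, Endo in UUO 6, and Macro 11 and 8. Without both N libraries, CD-P in UIR had 13, Endo in UUO 0, Macro 2 and 1, LOH minus PT in UUO 13, Endo minus PT in UUO 1, and Macro minus PT 1 and 5, and without both AN libraries CD-P between UUO and UIR had 1, Endo in UUO 1, Macro 1 and 1, and Macro minus PT 1 and 2. DESeq2 gave 2 in PT in UUO, 1 between UUO and UIR in LOH, 45 for LOH minus PT in UUO, and 0 and 2 for Macro minus PT. With no filter on low counts PT in UUO had 2, Macro 16 and 11, and Endo minus PT in UUO 1. Without TMM scaling, Endo in UUO had 1, Macro in UUO 8, LOH minus PT in UUO 59, and Macro minus PT 3 and 1, and the median of all genes moved to 0.30 and 0.30 in LOH, 0.33 and 0.41 in DT and 0.25 and 0.33 in CD-I, where the member medians were -0.81 and -0.91, -0.81 and -0.79, and -0.47 and -0.63. With mitochondrial genes removed before scaling, Macro minus PT in UIR had 1.

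A mitochondrial limit of 15% gave 0 in PT in UIR, 3 in Macro in UIR, and 1 in CD-P and 0 in CD-I between UUO and UIR. A limit of 50% gave 2 in PT in UIR (median -0.05) and 1 in UUO, 6 in Endo in UUO, 1 and 2 in Macro, 1, 9 and 10 between UUO and UIR in LOH, DT and CD-I, 60 for LOH minus PT in UUO and 17 for Macro minus PT in UUO. With free RNA subtracted, CD-P between UUO and UIR had 1, Macro 21 and 28, Endo minus PT in UUO 1 and Macro minus PT 2 and 19, the Endo median in UUO was 0.29, and *Uqcrfs1* and *Cycs* in Endo in UUO were 1.07 and 0.78. Naming each cell by itself gave 13 and 1 between UUO and UIR in DT and CD-I, 58 for LOH minus PT in UUO and 18 for Macro minus PT in UIR. Cells with at least 1000 UMIs gave 1 in T/NK in UUO, 59 for LOH minus PT in UUO, 1 for Endo minus PT in UUO and 3 for Macro minus PT in UIR. With the replicate block, CD-P in UIR had 38 and Macro in UUO 8. Deviations of UIR and UUO libraries of the same number, or of none, correlated at -0.047, 0.005 and -0.070 in PT, 0.459, 0.111 and 0.096 in LOH, 0.218, 0.029 and -0.084 in DT, 0.232, 0.212 and -0.008 in CD-P, 0.324, 0.091 and 0.029 in CD-I, 0.349, 0.025 and 0.041 in Endo, 0.207, -0.124 and -0.280 in Macro and 0.373, 0.042 and 0.060 in T/NK. In none of these 8 classes were all 3 above 0.1, so the numbers were not taken to pair the samples. In every class but PT, the pair with no number had the highest of the 3 values (0.207 to 0.459). The main fit has no term for what these 2 libraries may share. The causes of these differences were not tested. PT in UUO rests on few cells, and few 2-fold changes were found there in simulated data.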
